A study of Mus musculus with 24 samples.

Results

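Whole kidneys of 24 male mice were regrouped by the reads of a single gene, Htr6. A library was placed in the Htr6-positive group when its rounded expected count of Htr6 was 3 or more and in the Htr6-negative group when it was 2 or fewer, whatever its genotype label. All 24 libraries were grouped by this rule: 14 were Htr6-positive and 10 were Htr6-negative. All mice were on the B6 background and had X-linked Alport syndrome (XLAS, crossed as Nbl1 x Col4a5), were 15 weeks old, and were labelled heterozygous (HET) or wild type (WT) for Nbl1. Of the Htr6-positive libraries 12 were labelled HET and 2 WT, and of the Htr6-negative libraries 9 were labelled WT and 1 HET. The series holds no mouse without XLAS, so every group carries the Col4a5 defect. The labels do not say how the Nbl1 allele was made.

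Nbl1 encodes a secreted antagonist of the DAN family, which binds bone morphogenetic proteins (BMPs) and keeps them from their receptors; in the kidney, BMP signalling is known for its part in nephron development and in the response to injury. Htr6 encodes a serotonin receptor that couples to the stimulatory G protein and raises cyclic AMP, and it is best known from the brain. Alport syndrome is a defect of the type IV collagen of the glomerular basement membrane, of which Col4a5 encodes 1 chain.

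Htr6 and Nbl1 lie next to each other on chromosome 4 and are read from the same strand. On GRCm38, Nbl1 (ENSMUSG00000041120) spans chr4:139082284-139092993 on the minus strand and Htr6 (ENSMUSG00000028747) spans chr4:139061108-139075570, also minus, so that Htr6 starts 6713 bases beyond the end of Nbl1. The bases just upstream of both annotated starts are shown because the label concerns Nbl1 and the grouping Htr6. They come from RefSeq (GRCm38.p6), run 5' to 3' on the minus strand and have every CG dinucleotide in capitals.
Nbl1 (chr4:139092994-139093220): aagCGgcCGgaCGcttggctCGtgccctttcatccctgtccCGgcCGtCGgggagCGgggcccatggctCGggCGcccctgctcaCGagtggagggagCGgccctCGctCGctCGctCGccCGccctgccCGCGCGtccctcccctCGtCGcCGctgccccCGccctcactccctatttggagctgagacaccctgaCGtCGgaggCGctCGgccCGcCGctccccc
Htr6 (chr4:139075571-139075820): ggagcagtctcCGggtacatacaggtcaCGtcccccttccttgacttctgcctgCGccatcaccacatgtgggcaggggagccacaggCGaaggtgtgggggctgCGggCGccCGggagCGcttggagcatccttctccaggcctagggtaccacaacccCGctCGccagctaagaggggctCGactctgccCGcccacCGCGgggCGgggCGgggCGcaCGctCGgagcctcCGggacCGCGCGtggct
The 227 bases before Nbl1 held 30 CG dinucleotides at a GC content of 75.8%, and 3.94% of 32841 RefSeq promoter windows held as many. The 250 bases before Htr6 held 23 at 70.8% GC, and 13.3% of the windows held as many.

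The rule placed all 12 libraries of batch 2 by their labels, with 7 HET libraries positive and 5 WT libraries negative. In batch 1 it placed 5 libraries labelled HET and 2 labelled WT in the positive group, and 4 labelled WT and 1 labelled HET in the negative group. The 3 libraries that went against their labels, HET 6, WT 1 and WT 2, were all in batch 1. Replicate numbers follow the order of deposition and pair nothing. Total expected counts were about 30200000 to 33020000 (positive) and 29550000 to 32520000 (negative) in batch 1, and 36380000 to 44040000 and 38320000 to 50750000 in batch 2. The nephron markers of kidney were abundant in every group, with a geometric mean of the 25 proximal tubule markers between 630.0 and 761 CPM (counts relative to library size).

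Htr6 was selected on, so its values describe the grouping and support nothing. In the Htr6-positive libraries Htr6 had 8 to 49 counts, with a median of 25.5 and 365 in all. The Htr6-negative libraries had 4 counts in all: 2 in WT 9, 1 each in WT 4 and WT 5, and 0 in the other 7. Just inside the threshold was HET 2 with 8 counts and just outside it WT 9 with 2 counts. A count of 0 allows up to 3 counts, or 0.0577 to 0.101 CPM at the depths of these libraries, and this limit covers counting error only. On the scale of CPM with TMM factors, which is used for all levels here, Htr6 was at 0.735 ± 0.303 (SD, n = 14) in the positive group and 0.0100 ± 0.0163 (SD, n = 10) in the negative group. No negative library reached the lowest positive one, at 0.249 CPM.

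Nbl1 is tied to the grouping and is likewise given with no test. In batch 1 the 7 Htr6-positive libraries had 3.61 to 5.41 CPM of Nbl1 with a median of 4.12. The 5 Htr6-negative libraries of that batch had 9.23 (HET 6), 7.77 (WT 3), 6.99 (WT 4), 7.39 (WT 5) and 7.42 CPM (WT 6). The groups did not overlap. Of the libraries that went against their labels, HET 6 had the most Nbl1 of the batch and WT 2, at 3.61 CPM, the least; WT 1, at 5.41 CPM, was the highest positive library and lay below every negative one.

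In batch 2 the positive libraries had 4.23 to 7.82 CPM of Nbl1 with a median of 4.95. The negative libraries had 10.9 (WT 7), 9.77 (WT 8), 11.2 (WT 9), 15.2 (WT 10) and 7.003 CPM (WT 11). Here the groups overlapped, since HET 8 at 7.82 CPM lay above WT 11. The overlap rests on HET 8 alone among the positive libraries, and the title and the library name given for HET 8 do not match in their digits; its values were read by the library name. The mean of the positive group was 55.3% of that of the negative group in batch 1, 51.4% in batch 2 and 53.0% over all libraries. The log2 fold change, positive minus negative with batch in the model, was -0.91 (SE 0.11), against -0.67 when the same libraries were compared by their labels.

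**Figure D1:**
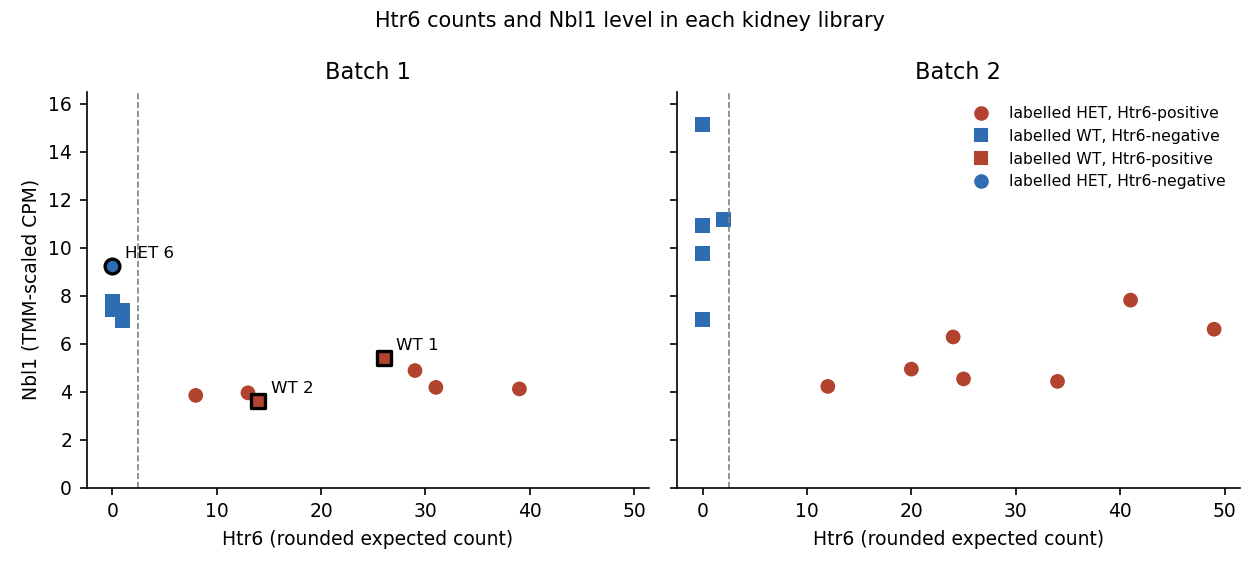
Nbl1 level (TMM-scaled CPM, y axis) against the rounded Htr6 count (x axis) for each library, in batch 1 and batch 2; circles are labelled HET, squares WT, red is Htr6-positive, blue Htr6-negative, and the dashed line is the threshold. HET 6, WT 1 and WT 2, outlined, lie with the group given by Htr6 and away from the libraries that share their label.

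Col4a5, the collagen gene that is defective in all these mice, did not differ by the test between the Htr6 groups. It had 22.2 to 27.3 CPM in the positive and 23.2 to 26.5 CPM in the negative libraries of batch 1, and 17.4 to 24.8 and 22.1 to 27.2 CPM in batch 2. The ranges overlapped in both batches, and the log2 fold change was -0.079 (SE 0.053, unadjusted p = 0.148, edgeR quasi-likelihood test).

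With Htr6 and Nbl1 left out of the count, no gene passed the threshold (adjusted p under 0.05) between the 14 Htr6-positive and 10 Htr6-negative libraries. That is 0 of 18511 genes tested (0%) with edgeR's quasi-likelihood test, batch as a covariate and Benjamini-Hochberg adjustment. The smallest adjusted p was 0.204. Nbl1, of smaller p, stayed in the adjustment, so the smallest adjusted p values given here are lower than they would be without it. Without adjustment, 1099 genes (5.94%) had p under 0.05, 725 with a higher and 374 with a lower level in the positive group. This split depended on single libraries and on the scaling. Under the same scaling, 10 of the 24 fits without 1 library had fewer than 50% higher, such as 342 higher and 409 lower without WT 8 and 486 and 524 without HET 3. With all libraries, upper quartile scaling gave 500 and 528, limma on log2(TPM + 1) 29 and 4756, and limma on log2(FPKM + 1) 87 and 2389. DESeq2 called 1 of 18511 genes (0.0054%), Tmem37, and had 1146 genes at an unadjusted p under 0.05. Without the 3 libraries that went against their labels, edgeR called 0 of 18526 genes, with 945 at an unadjusted p under 0.05 (450 higher, 495 lower) and a smallest adjusted p of 0.217.

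The labelled comparison of the same 24 libraries is set beside it as values only, since both share every library. With Htr6 and Nbl1 left out of the count, edgeR called 0 of 18511 genes (0%) for HET against WT. Of these genes, 760 had p under 0.05 before adjustment, and none had an adjusted p below 0.996.

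Tmem37, which encodes a protein related to the gamma subunits of voltage-gated calcium channels (chr1:120067377-120074074, minus strand), had the smallest p. In batch 1 it had 21.5 to 26.9 CPM in the 7 positive libraries, with a median of 24.24. The 5 negative libraries had 27.0 (HET 6), 31.9 (WT 3), 28.6 (WT 4), 31.1 (WT 5) and 28.6 CPM (WT 6). Every positive library lay below every negative one, although the margin between HET 5 at 26.9 and HET 6 at 27.0 CPM was small.

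In batch 2 Tmem37 had 21.2 to 25.6 CPM in the positive libraries, with a median of 23.2, and 24.23, 26.35, 26.5, 27.4 and 25.5 CPM in WT 7 to WT 11. These ranges overlapped. Over all libraries the means were 23.8 ± 1.73 (SD, n = 14) and 27.7 ± 2.40 CPM (SD, n = 10). Tmem37 had a log2 fold change of -0.21 (SE 0.043), and its adjusted p was 0.204 with edgeR and 0.00859 with DESeq2. The edgeR adjustment left out Htr6 and kept Nbl1, while that of DESeq2 kept both, so these values are not over the same genes. Both are lower than they would be without the genes tied to the grouping. The fold change was -0.29 in batch 1, -0.16 in batch 2 and -0.21 without the 3 libraries, and DESeq2 was the only one of 40 alternatives in which Tmem37 passed.

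Among the 10 genes of smallest p with a positive log2 fold change and a mean of at least 1 CPM were Pgam2, Myo5c, Rpl24, Selenos, Hras, Osbpl1a, Gm43658, Rpl14 and ccdc198. None passed the threshold, with an adjusted p of 0.7475 for each of them in edgeR, and apart from Gm43658 their log2 fold changes lay between 0.12 and 0.22. Pgam2 encodes a phosphoglycerate mutase of glycolysis. It had 15.9 to 19.7 CPM in the positive and 15.6 to 17.0 CPM in the negative libraries of batch 1, and 19.6 to 26.1 against 16.4 to 20.3 CPM in batch 2. The ranges overlapped in both batches, and the log2 fold change was 0.22 (SE 0.052).

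Myo5c, a class V myosin of epithelial cells, had 12.6 to 13.6 against 11.1 to 12.9 CPM in batch 1 and 14.5 to 17.6 against 12.8 to 14.4 CPM in batch 2, where the ranges did not overlap. Its log2 fold change was 0.17 (SE 0.042).

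Hras, a small GTPase, and Osbpl1a, of the oxysterol-binding protein family, had log2 fold changes of 0.15 (SE 0.037) and 0.16 (SE 0.040). Rpl24 and Rpl14 encode proteins of the large ribosomal subunit and had 0.12 (SE 0.031) and 0.14 (SE 0.037); ribosomal protein genes have many processed copies in the genome, so reads may be split among them. For ccdc198 the value was 0.15 (SE 0.039). On log2(TPM + 1) the fold changes of Myo5c, Rpl24, Rpl14 and ccdc198 were below 0, between -0.0335 and -0.0061, with the median gene shifted by -0.12. Gm43658, a gene model not yet typed by experiment, had a log2 fold change of 0.64 (SE 0.16) but very different levels by batch, with 3.73 to 6.53 CPM in batch 1 and 0.126 to 0.768 CPM in batch 2.

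**Figure D2:**
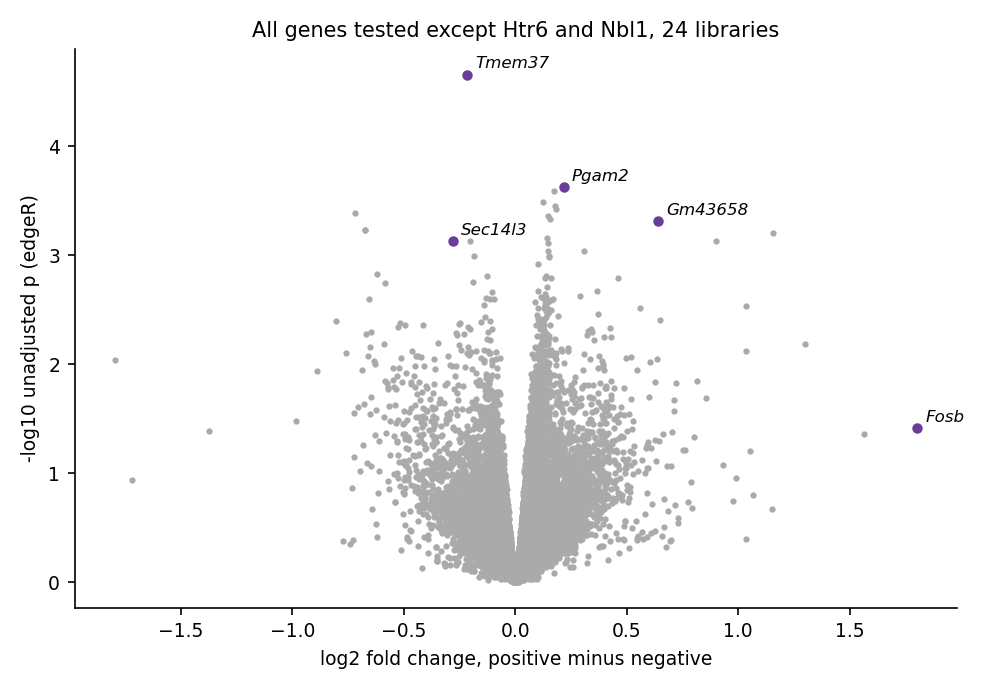
Each point is a gene: log2 fold change, Htr6-positive minus Htr6-negative (x axis), against -log10 of the unadjusted p of edgeR (y axis), over all 24 libraries without Htr6 and Nbl1. Tmem37 stands at the top with a small fold change (-0.21), and Fosb has the most positive fold change (1.80) at an unadjusted p of 0.0383.

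In the other direction the 10 genes of smallest p were Tmem37, Gm12895, Gm12896, Sec14l3, Spats2l, Osbp2, Gm14964, Lama1, Sema6d and Supt20. Sec14l3, of a family of lipid transfer proteins, had a log2 fold change of -0.28 (SE 0.074), Spats2l -0.20 (SE 0.054) and Osbp2, an oxysterol-binding protein, -0.19 (SE 0.051). Sema6d, a transmembrane semaphorin, had -0.19 (SE 0.055) and Supt20, of the SAGA coactivator complex, -0.10 (SE 0.031). The antisense gene model Gm14964 had -0.62 (SE 0.18), from 1.03 ± 0.395 (SD, n = 14) against 1.602 ± 0.520 CPM (SD, n = 10); without a known strand setting its reads cannot be told apart from those of the gene it overlaps. Gm12895 and Gm12896 are processed pseudogenes of chromosome 4 with identical counts in all libraries and count as 1 uncertain value (-0.68, SE 0.17). They had 8.33 to 23.2 CPM in batch 1 and at most 0.101 CPM in batch 2.

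Lama1 encodes the alpha 1 chain of laminin, a component of embryonic and tubular basement membranes that also appears in the Alport glomerulus. In batch 1 it had 34.3 to 40.9 CPM in the positive libraries and 38.5 to 41.4 CPM in the negative ones. In batch 2 it had 27.8 to 32.7 CPM, median 30.7, against 36.1 (WT 7), 35.6 (WT 8), 33.0 (WT 9), 33.1 (WT 10) and 33.8 CPM (WT 11). The ranges of Lama1 overlapped in batch 1 and did not in batch 2. The log2 fold change was -0.13 (SE 0.037, adjusted p = 0.812 with edgeR), with -0.080 in batch 1 and -0.20 in batch 2.

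Within batches the regrouping gave no call with edgeR either. In batch 1, where the rule moved 3 libraries, edgeR called 0 of 18758 genes (0%), with 584 at an unadjusted p under 0.05 and a smallest adjusted p of 0.9995. In batch 2, where the Htr6 groups equal the labels, it called 0 of 17953 (0%), with 1484 at an unadjusted p under 0.05 and a smallest adjusted p of 0.0958. DESeq2 called 0 of the 18758 genes in batch 1 and 26 of the 17953 in batch 2, where its filter on mean counts left some genes unadjusted. Those 26 included Dynlt1b (adjusted p = 1.19e-05) and Gpr137b-ps (adjusted p = 0.000116). Most of the others had an adjusted p of 0.0495 with DESeq2, just under the threshold. Nbl1 stayed in that adjustment, which lowers the adjusted p of genes of larger p. How many of the 26 would pass without Nbl1 was not tested. In edgeR's test for an interaction of Htr6 group with batch, no gene passed the threshold (0 of 18511, 0%). There, 1239 genes had an unadjusted p under 0.05, and the smallest adjusted p was 0.5275.

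The 2 genes at the smallest adjusted p in batch 2 were Dynlt1b and Gpr137b-ps, which are named after their values were seen. Dynlt1b encodes a light chain of the dynein motor and has near-identical copies beside it, so its counts are uncertain. In batch 2 it had 19.9 to 29.3 CPM, median 26.8, in the positive libraries and 16.1, 14.7, 15.0, 16.46 and 17.0 CPM in WT 7 to WT 11. In batch 1 the ranges were 14.4 to 19.8 and 14.3 to 21.1 CPM. The groups were apart in batch 2 and lay over each other in batch 1. The log2 fold change of Dynlt1b was 0.63 in batch 2 and -0.036 in batch 1, with an unadjusted interaction p of 0.0001385 and an adjusted one of 0.5275 (edgeR).

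Gpr137b-ps, a transcribed pseudogene of chromosome 13, had 54.3 to 58.6 CPM, median 56.2, in the positive libraries of batch 2. The negative ones had 69.9 (WT 7), 68.9 (WT 8), 60.0 (WT 9), 70.1 (WT 10) and 68.3 CPM (WT 11). In batch 1 the ranges were 61.2 to 71.2 and 61.3 to 69.3 CPM, nearly the same. Its log2 fold change was -0.28 in batch 2 and 0.0040 in batch 1, with an adjusted interaction p of 0.5275 (edgeR). Selenos, a selenoprotein of the endoplasmic reticulum, had 30.4 to 37.3 against 26.8 to 30.2 CPM in batch 2 and 22.65 to 27.9 against 23.1 to 25.1 CPM in batch 1.

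**Figure D3:**
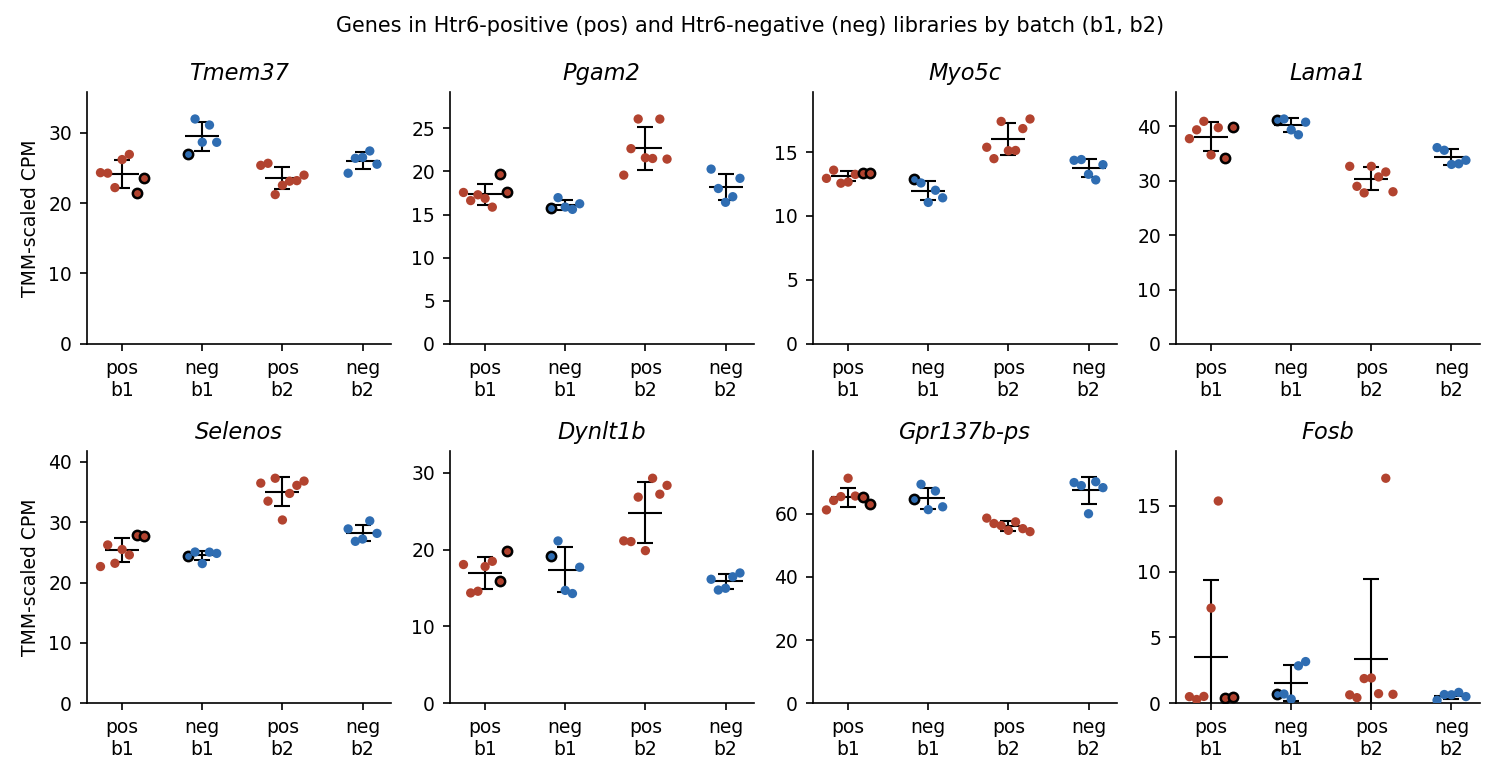
TMM-scaled CPM (y axis) of 8 genes in each library, by Htr6 group and batch (x axis); points are libraries, outlined where Htr6 and label disagree, and bars are the mean and SD of 7 positive or 5 negative libraries. The mean of Tmem37 is lower in the positive group of both batches, Dynlt1b and Gpr137b-ps are apart in batch 2 only, and Fosb is spread by 3 libraries (HET 4, HET 5 and HET 12).

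As a description that needs no model, the genes were counted whose ranges in the 2 groups did not overlap. In batch 1, 17 genes (0.0918%) had every positive library above every negative one and 16 (0.0864%) the reverse, among them Tmem37. In batch 2 there were 68 (0.367%) and 31 (0.167%), among them Myo5c, Selenos, Dynlt1b, mt-Nd6 and Umod above and Lama1, Sema6d, Supt20 and Gpr137b-ps below. No gene was apart in the same direction in both batches (0% higher, 0% lower), and over all 24 libraries Htr6 alone was (0% of the others). The split moved with the scaling: CPM without TMM factors gave 5 and 13 genes in batch 1 and 9 and 541 in batch 2, and TPM gave 2 and 47, and 4 and 260. Without the 3 libraries, which leaves 5 against 4 in batch 1, it was 106 and 114 there.

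The genes around Nbl1 were described because the rule grouped the libraries by a gene at this locus. Within 500 kb of Nbl1 lie 30 other annotated genes beside Htr6, of which 14 were tested; 0 passed, 3 had a positive and 11 a negative log2 fold change, and the median was -0.024 (0.011 over all genes tested). Micos10, which encodes a subunit of the complex that shapes mitochondrial cristae, is the nearest tested gene upstream, 8820 bases from Nbl1. It had 72.1 to 88.5 CPM against 73.5 to 80.1 CPM in batch 1 and 61.9 to 72.2 against 58.2 to 66.2 CPM in batch 2. The log2 fold change of Micos10 was 0.074 (SE 0.035, adjusted p = 0.812, edgeR).

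On the other side, beyond Htr6, the nearest tested gene was Tmco4, a transmembrane protein gene, at 14.85 ± 1.53 (SD, n = 14) against 14.93 ± 1.45 CPM (SD, n = 10), a log2 fold change of -0.0074 (SE 0.057). Further out on that side Otud3, a deubiquitinase, had 0.049 (SE 0.061). On the side of Micos10, Emc1, of the complex that inserts proteins into the endoplasmic reticulum membrane, had -0.055 (SE 0.028) and Iffo2 -0.039 (SE 0.051); Emc1 overlaps Ubr4, so reads may be shared. Pla2g5, a secreted phospholipase on the side of Htr6, had 0.20 in batch 1 and -0.37 in batch 2, with an unadjusted interaction p of 0.00142 and an adjusted one of 0.670 (edgeR). Gm45533, an antisense model just before Htr6, had 0 counts in all libraries.

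**Figure D4:**
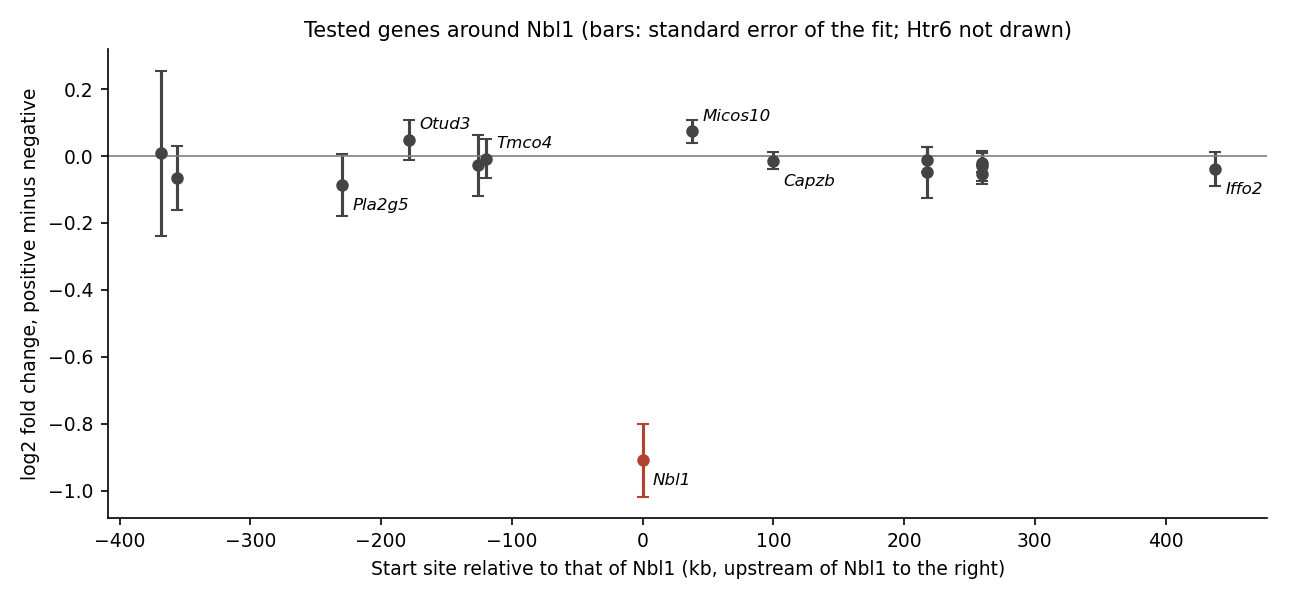
Log2 fold change, Htr6-positive minus Htr6-negative (y axis, bars are standard errors), of Nbl1 and the 14 tested genes around it by the distance of their start sites (x axis, kb). Nbl1 is at -0.91, and the 14 others lie between -0.086 and 0.074.

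Gene lists were read by their counts beside those over all genes tested, of which 56.7% had a positive log2 fold change with a median of 0.011; no member of any list passed the threshold of the edgeR test over all 24 libraries. In batch 2 alone DESeq2 called the list members Selenos (adjusted p = 0.00275), mt-Nd6, Dnajb11, Cyp51 and Col5a3 (0.0495 each), and edgeR called Selenos once HET 10 was left out (0.0371). The genes at 0.0495 lay just under the threshold with Nbl1 kept in the DESeq2 adjustment. Whether they pass without Nbl1 was not tested. These libraries are whole kidneys, so a change in the share of a cell type and one in its RNA per cell cannot be told apart. The lists were chosen with earlier results known, and their fold changes support no claim about the list as such.

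The serotonin list, without Htr6, had 7 of 11 tested members with a positive log2 fold change and a median of 0.030. Its members of smallest p were the receptors Htr2a, at 0.39 (SE 0.17), and Htr3a, at 0.22 (SE 0.11), both with an adjusted p of 0.812 in edgeR. Htr2a, a receptor coupled to Gq, was at 0.440 to 1.34 against 0.484 to 0.805 CPM in batch 1 and 0.519 to 0.965 against 0.381 to 0.616 CPM in batch 2, so its ranges overlapped. Tph2, Htr1a, Htr2c and Htr1f had no count in any library. The cyclic AMP and CREB response list, genes that follow the messenger raised by Gs-coupled receptors, had 18 of 19 members above 0 with a median of 0.15.

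Its members of smallest p were Fosb and Nr4a3, transcription factors of the immediate early response, with log2 fold changes of 1.80 (SE 0.82) and 1.57 (SE 0.73; adjusted p = 0.812 for both, edgeR). The list of immediate early and heat shock genes, which shares Fosb, had 20 of 21 members above 0 and a median of 0.32. Its geometric mean was 7.10 to 59.0 against 9.35 to 29.5 CPM in batch 1. In batch 2 it was 10.6 to 26.7 against 8.49 to 13.2 CPM, also with overlap. The second gene of the list by p was Egr3 at 1.05 (SE 0.53). Fosb had 0.280 to 15.4 CPM with a median of 0.503 in the positive libraries of batch 1, and 0.710 (HET 6), 0.695 (WT 3), 0.315 (WT 4), 2.84 (WT 5) and 3.16 CPM (WT 6) in the negative ones. In batch 2 it had 0.417 to 17.1 CPM with a median of 0.721, and 0.219, 0.656, 0.635, 0.819 and 0.5002 CPM in WT 7 to WT 11. The means of Fosb rest on 3 positive libraries, HET 5 at 15.4, HET 12 at 17.1 and HET 4 at 7.22 CPM, while the other 11 had at most 1.91 CPM. With the genotype label as a further covariate the fold changes of Fosb, Nr4a3 and Egr3 were -0.035, -0.16 and -0.11.

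In the BMP pathway, in which Nbl1 acts as an antagonist, no member passed, Nbl1 being left out. Of the list of other antagonists, in which Kcp was also placed, 9 of 16 were above 0 (median 0.018). Sostdc1, an antagonist of BMPs and Wnts made by the distal nephron, had 0.15 (SE 0.072) and Kcp, which enhances BMP signalling in the kidney, -0.17 (SE 0.087). Of the BMP and GDF ligands 6 of 14 were above 0 (median -0.014), with Bmp1, the procollagen C-proteinase, at -0.13 (SE 0.069) and Bmp5 at 0.21 (SE 0.21). Of receptors and Smads 6 of 18 were above 0 (median -0.019), with Smad2, a transducer of TGF-beta signals, at -0.060 (SE 0.029) and the coreceptor Rgma at -0.13 (SE 0.10).

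The BMP target genes had 2 of 12 members above 0 and a median of -0.079, but the median was 0.031 in batch 1 and -0.13 in batch 2. Hey1, a Notch and BMP responsive repressor, had a log2 fold change of -0.23 (SE 0.17). Id3, an inhibitor of helix-loop-helix factors, had -0.19 (SE 0.15), with 0.11 in batch 1 and -0.49 in batch 2. The TGF-beta list had 6 of 20 above 0 (median -0.033), with the ligands Tgfb1 at -0.13 (SE 0.063) and Tgfb2 at -0.15 (SE 0.098).

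The glomerular basement membrane list had 4 of 21 members above 0 and 17 below. Its median was -0.050 (-0.0080 in batch 1 and -0.105 in batch 2). Against 374 of 18511 genes tested, 3 of 21 were below 0 at an unadjusted p under 0.05 in this list. Besides Lama1 its smallest p was that of Agrn, the main heparan sulfate proteoglycan of that membrane, at -0.11 (SE 0.044). Agrn was at 152 to 186 against 159 to 187 CPM in batch 1 and 147 to 194 against 176 to 199 CPM in batch 2, with overlap in both. Fibrillar collagen and fibrosis genes were 12 of 36 above 0 (median -0.0081), with Thbs1, thrombospondin 1, at 0.22 (SE 0.14). Col5a3, a minor chain of type V collagen, had -0.17 (SE 0.11), with 0.14 in batch 1 and -0.47 in batch 2 (unadjusted interaction p = 0.00232, adjusted 0.670, edgeR). Tubular injury genes were 8 of 25 above 0 (median -0.035).

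Among the cell type markers the podocyte list had 6 of 22 members above 0 (median -0.040), with nephrin, encoded by Nphs1, at -0.081 (SE 0.040). Proximal tubule markers were 12 of 25 above 0 (median -0.0014), with the organic anion transporter Slc22a6 at -0.078 (SE 0.037) and the glucose transporter Slc5a1 at 0.12 (SE 0.058). Markers of the loop of Henle and distal tubule were 17 of 20 above 0 (median 0.082). Above 0, 6 of 20 had an unadjusted p under 0.05, against 725 of 18511 genes tested. Umod, the uromodulin of the thick ascending limb, had 2336 to 2661 against 2202 to 2484 CPM in batch 1 and 3264 to 4076 against 2921 to 3221 CPM in batch 2, where the ranges did not overlap. Its log2 fold change was 0.12 (SE 0.038), and that of Ppp1r1a, a phosphatase inhibitor, 0.11 (SE 0.047); adjusted p was 0.812 for both in edgeR.

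Collecting duct markers were 15 of 20 above 0 (median 0.032), with the proton pump subunit Atp6v1g3 at 0.21 (SE 0.071) and the sodium channel subunit Scnn1a at 0.12 (SE 0.058). Endothelial markers were 10 of 20 above 0 (median 0.0029), parietal epithelium 6 of 9 (0.0079) and mesangial, smooth muscle and renin cell markers 4 of 15 (-0.060).

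Macrophage and dendritic cell markers were 4 of 25 above 0 (median -0.067), with Clec9a, of cross-presenting dendritic cells, at -0.29 (SE 0.13) and the integrin Itgax at -0.23 (SE 0.12). T and NK cell markers were 3 of 15 above 0 (-0.063), and neutrophil markers 4 of 5 (0.081; -0.068 in batch 1 and 0.23 in batch 2). B and plasma cell markers were 10 of 15 above 0 with a median of 0.10, which was 0.29 in batch 1, -0.079 in batch 2 and -0.12 without the 3 libraries that went against their labels. Interferon response genes were 3 of 24 above 0 (median -0.089). Below 0, 3 of the 24 had an unadjusted p under 0.05, against 374 of 18511 genes tested. Cxcl9, a chemokine induced by interferon gamma, had -0.39 (SE 0.15).

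Proliferation genes were 4 of 27 above 0 with a median of -0.15, -0.092 in batch 1 and -0.17 in batch 2. Below 0, 5 of the 27 had an unadjusted p under 0.05, against 374 of 18511 genes tested. Ccnb1, the cyclin of mitotic entry, had 0.839 to 1.74 against 1.27 to 2.10 CPM in batch 1 and 0.8305 to 2.065 against 1.19 to 2.12 CPM in batch 2. Its log2 fold change was -0.42 (SE 0.15), and that of Birc5, survivin, -0.32 (SE 0.12). The ranges of Ccnb1 overlapped in both batches, and the geometric mean of the list was 2.555 to 4.19 CPM in the positive and 2.92 to 4.41 CPM in the negative libraries.

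The mitochondrially encoded, respiratory chain and ribosomal lists had nearly all members above 0 with TMM scaling; on log2(TPM + 1) their medians were 0.0023, -0.068 and -0.055. The 13 mitochondrially encoded genes were all above 0 with a median of 0.18. An unadjusted p under 0.05 was found for 6 of 13, against 725 of 18511 genes tested that were above 0. mt-Nd6, a subunit of complex I, had 115 to 200 CPM in the positive libraries of batch 1, and 137, 129.5, 131, 172 and 180.0 CPM in the negative ones, which overlap. In batch 2 it had 271 to 413 CPM, median 311, against 262 (WT 7), 199 (WT 8), 217.5 (WT 9), 133 (WT 10) and 205 CPM (WT 11), which do not. The log2 fold change of mt-Nd6 was 0.38 (SE 0.13), with 0.077 in batch 1 and 0.66 in batch 2; it overlaps mt-Nd5 on the other strand, so without a strand setting its counts are uncertain. mt-Atp6, a subunit of the ATP synthase, had 0.28 (SE 0.12).

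Of 35 nuclear genes of the respiratory chain 34 were above 0 (median 0.061). Above 0, 11 of the 35 had an unadjusted p under 0.05, against 725 of 18511 genes tested. Ndufb10, of complex I, had 0.15 (SE 0.041, adjusted p = 0.7925, edgeR) and Cox4i1, of complex IV, 0.10 (SE 0.031). The 81 tested cytosolic ribosomal protein genes, a list made after the values were seen, had 78 above 0 and a median of 0.081. Their log2 fold changes lay between -0.030 and 0.17. Above 0, 50 of the 81 had an unadjusted p under 0.05, against 725 of 18511 genes tested. Fatty acid oxidation genes were 16 of 20 above 0 (median 0.037), and cholesterol synthesis genes 16 of 19 (0.027; -0.049 in batch 1 and 0.11 in batch 2).

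The unfolded protein and stress response list had 23 of 25 members above 0. Its median was 0.11, with -0.056 in batch 1 and 0.25 in batch 2. Above 0, 7 of the 25 had an unadjusted p under 0.05, against 725 of 18511 genes tested. Selenos had 0.18 (SE 0.046, adjusted p = 0.7475, edgeR) and Dnajb11, a cochaperone of the endoplasmic reticulum, 0.15 (SE 0.058). The geometric mean of the list was 40.1 to 44.0 CPM in the positive and 41.1 to 50.6 CPM in the negative libraries of batch 1, and 51.2 to 73.2 against 48.5 to 51.9 CPM in batch 2. The ranges overlapped in both batches, with the positive libraries toward the low end in batch 1 and toward the high end in batch 2. Circadian clock genes were 15 of 18 above 0 (median 0.065), male-biased kidney genes 6 of 15 (-0.045) and female-biased ones 5 of 12 (-0.040).

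**Figure D5:**
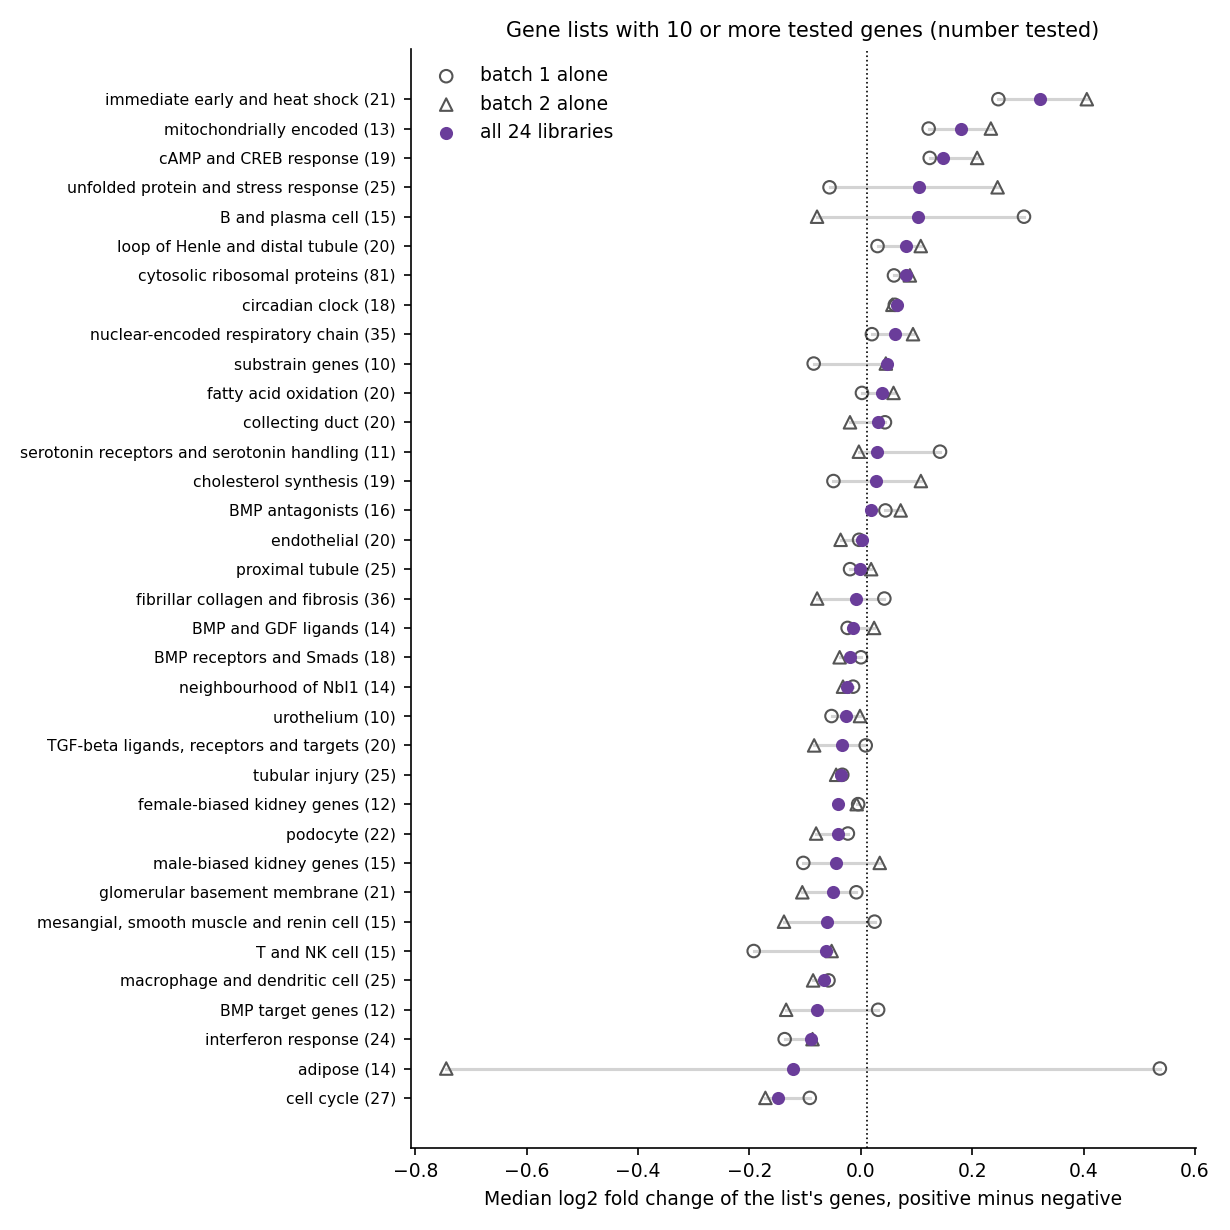
Median log2 fold change, Htr6-positive minus Htr6-negative (x axis), of each list with 10 or more tested genes (y axis, number tested in brackets), over all 24 libraries (filled), in batch 1 alone (open circles) and in batch 2 alone (open triangles); the dotted line is the median of all genes tested, 0.011. The adipose list has its batch medians farthest apart (0.54 and -0.74), and the cell cycle list has the lowest median (-0.15).

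The levels of these lists move with the scaling. On log2(TPM + 1) the median gene shifted by -0.12, so lists are compared with the median of all genes under the same scaling. By TMM, RLE, upper quartile, log2(TPM + 1) and log2(FPKM + 1) the ribosomal list lay above that median, by 0.069 with TMM and 0.035 with TPM, and so did the mitochondrially encoded (0.17 and 0.092), respiratory chain (0.050 and 0.021), immediate early (0.31 and 0.19), unfolded protein (0.094 and 0.060) and loop of Henle lists (0.070 and 0.044). The cell cycle (-0.16 and -0.052), interferon (-0.10 and -0.063) and basement membrane lists (-0.061 and -0.058) lay below it in all 5. Some lists crossed that median: collecting duct (0.020 with TMM and -0.014 with TPM), fatty acid oxidation (0.026 and -0.010), cholesterol synthesis (0.016 and -0.0089), T and NK cell (-0.075 and 0.011) and urothelium (-0.039 and 0.0018). Without that centring, the log2(TPM + 1) medians of the loop of Henle (-0.045), unfolded protein (-0.029) and fatty acid oxidation lists (-0.0996) were below 0. Likewise the log2(TPM + 1) fold changes of Cox4i1 (-0.0405), Umod (-0.0158), Ppp1r1a (-0.0300), Slc5a1 (-0.0138), Scnn1a (-0.0125), Micos10 (-0.0609) and Otud3 (-0.0724) were below 0, against values above 0 with TMM.

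Markers of tissues that a dissected kidney can carry were summed in each library. Adipose genes were 1 of 14 above 0 and 13 below (median -0.12), with a median of 0.54 in batch 1 and -0.74 in batch 2. They summed to 116 to 378 CPM in the positive and 117 to 345 CPM in the negative libraries of batch 1, and to 155 to 471 against 149 to 487 CPM in batch 2. The 8 erythrocyte genes were above 0 in the fit over all libraries with a median log2 fold change of 0.21, but the median was -0.025 in batch 1, where 6 of the 8 were below 0, and 0.50 in batch 2. They summed to 253 to 396 against 223 to 572 CPM in batch 1 and to 407 to 1050.0 against 335 to 746.5 CPM in batch 2. Urothelium markers were 4 of 10 above 0 (median -0.027), those of nerve 6 of 7 (0.033), of skeletal muscle 3 of 3 (0.075), of the adrenal gland 1 of 1 (0.15), and of pancreas, liver and gut 5 of 9 (0.0054), with the pancreatic enzymes Pnlip, Cpa1, Prss2 and Cela2a at 0 counts in every library. Genes known to differ between B6 substrains were 6 of 10 above 0 (0.047). The adipose and erythrocyte ranges overlapped between the Htr6 groups in both batches, and the part of these tissues in any result was not tested.

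Library measures were compared between the Htr6 groups within each batch by exact two-sided permutation tests, 8 in all, with 0.00126 as the smallest p that 7 against 5 libraries allow. The share of counts in the 10 most abundant genes was 21.2% to 30.9% in the positive and 18.5% to 23.9% in the negative libraries of batch 2 (exact p = 0.0290, adjusted 0.232), and 16.4% to 18.5% against 16.3% to 17.4% in batch 1 (exact p = 0.134). The mitochondrially encoded share was 7.55% to 9.70% against 7.51% to 8.00% in batch 1 and 9.18% to 12.2% against 8.82% to 11.5% in batch 2. No measure passed after adjustment. With the genes divided by exon length into 3 groups of like size, the median log2 fold change was 0.024 for the shortest, 0.010 for the middle and 0.0054 for the longest genes; their part in the values of the ribosomal and respiratory chain genes, which are short, was not tested.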

How the data were processed

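Bulk mRNA libraries of 24 kidneys were used as deposited in 1 table. Its 3 columns a library are the authors' deposited expected count, TPM and FPKM. The submitters' processing notes name fastp, STAR, featureCounts and the build GRCm38 (mm10), without versions; how strand was handled and which annotation was counted is not stated in the sources used here. The authors' deposited expected counts were not whole for 11.8% to 15.4% of genes, and were rounded before any test. The deposited TPM and FPKM were used on the log2 scale in alternatives, with a pseudocount of 1 or 0.1.

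Libraries were grouped by the rounded Htr6 count. The grouping and the gene lists, 40 in number plus the ribosomal one and the neighbourhood of Nbl1, were chosen with earlier results of these data known. Genes were kept by filterByExpr of edgeR 4.0.16 (minimum count 10, R 4.3.3), which left 18513 genes holding 99.9% of the counts. Levels are CPM on TMM-scaled library sizes, and geometric means over a list add 0.1 CPM to each value. The main test was edgeR's quasi-likelihood test with robust dispersion and batch as covariate. In edgeR and limma, Benjamini-Hochberg adjustment ran over all genes except Htr6, with a threshold of 0.05. For DESeq2 its own adjusted p was used, with neither Htr6 nor Nbl1 removed beforehand and after its filter on mean counts. Nbl1 thus stayed in the adjustments, which lowers the adjusted p of genes of larger p. Calls were counted without Htr6 and Nbl1. Standard errors are derived from the test statistic. DESeq2 1.42.0 and limma 3.58.1 gave alternatives. The edgeR, DESeq2 and limma voom fits of batch and Htr6 group over all 24 libraries were tested on simulated data. The other fits were not. Labels do not say more of the libraries than that each is a separate mouse sample, so p-values measure the spread between these samples.

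Named genes are Htr6, Nbl1 and Col4a5, the 10 genes of lowest p on either side of 0 among those averaging 1 CPM or more, and 5 neighbours of Nbl1 of smallest p with the nearest tested on each side. For lists, the 2 members of smallest p are named for most of those described and 1 for the podocyte and interferon lists; Cyp51 is named as a DESeq2 call; members of highest CPM and those of the other lists, which the rule also took, are not named, a choice made after the values were seen. Some genes that the rule took are not reported here. Ubr4 is named as the gene that Emc1 overlaps. Coordinates are from GENCODE M21 (GRCm38), in which 55227 of 55487 identifiers were found.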

Additional observations from a re-analysis of the deposited data

Results flagged for a closer look

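Of 168 groups of libraries, each the values of 1 gene or measure in 1 Htr6 group of 1 batch, 14 held a library far from the rest by Dixon's test at the 95% level; chance gives about 1 in 20 such groups. In the Htr6-positive group of batch 1, HET 4 had the lowest Osbpl1a (55.3 CPM). In the Htr6-positive group of batch 2, HET 12 stood apart for Fosb (17.1 CPM), HET 8 for Pla2g5 (7.28 CPM), HET 9 for ccdc198 (95.45 CPM) and Ndufb10 (122.8 CPM), and HET 11 for Umod (4076 CPM).

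In the Htr6-negative group of batch 1, WT 5 had the lowest Emc1 (68.3 CPM) and WT 6 the lowest Umod (2202 CPM). In that of batch 2, WT 9 had the only Htr6 counts (0.0385 CPM) and the lowest Gpr137b-ps (59.99 CPM) and Iffo2 (9.99 CPM). WT 7 had the largest share of counts in its 10 most abundant genes (23.9%) and the only count of Gm12895 and Gm12896 (0.0243 CPM for each, from the same reads).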

How the results depend on the processing

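Over all 24 libraries, edgeR called 0 genes in each of the 24 fits without 1 library. DESeq2 called 1 gene (Tmem37), and limma called 1 on log2(TPM + 1) and 1 on log2(TPM + 0.1), Shd in both (adjusted p 0.00968 and 0.0106). By CPM the ranges of Shd overlapped in both batches, with 2.47 to 3.69 against 2.92 to 3.50 CPM in batch 1. With the genotype label as a covariate edgeR called 1, the pseudogene Gm13835. It had 0 CPM in the positive and 0 to 0.803 CPM in the negative libraries of batch 1. In batch 2 it had 18.5 to 27.35 against 20.5 to 23.5 CPM. Batch 1, the interaction and the labelled comparison had 0 calls in every alternative run. In batch 2 DESeq2 called 26 genes with Nbl1 kept in its adjustment, most of them just under the threshold. There edgeR called 0 to 2 without 1 library: Dynlt1b and Selenos without HET 10, and Gpr137b-ps without WT 9. Genes whose ranges did not overlap numbered 33 in batch 1, 18 by CPM without TMM (an alternative added after seeing the data) and 220 without the 3 libraries that went against their labels. In batch 2 they numbered 99, 550 by CPM without TMM and 264 by TPM, and in both batches 0, or 1 by TPM (Shd). Among genes at an unadjusted p under 0.05, the share with a higher level was 66.0%, and 45.5% to 68.0% without 1 library.

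Of 2517 values for 63 named genes, 2475 kept direction and side of the threshold, 1 newly passed (Tmem37, DESeq2) and 41, in 20 genes, changed sign. On log2(TPM + 1) and log2(TPM + 0.1) these were Myo5c (-0.0255, -0.0314), Rpl24 (-0.01991, -0.01994), Rpl14 (-0.00608, -0.00616), ccdc198 (-0.0335, -0.0341), Cox4i1 (-0.0405, -0.0406), Umod (-0.0158, -0.01582), Ppp1r1a (-0.0300, -0.0304), Micos10 (-0.0609, -0.0614), Slc5a1 (-0.0138, -0.0159), Scnn1a (-0.0125, -0.0137) and Otud3 (-0.0724, -0.0884), and on log2(TPM + 0.1) alone Gm12895 and Gm12896 (0.7655 each). On log2(FPKM + 1) they were Micos10 (-0.0113) and Otud3 (-0.0339). With the genotype label as covariate they were Fosb (-0.0352), Nr4a3 (-0.160), Egr3 (-0.1105), Hey1 (0.0709), Pla2g5 (0.0374) and Otud3 (-0.0537). Cxcl9 was at 0.0334 with an Htr6 threshold of 1 count. Tmco4 was at 0.000425 with limma voom, 0.00608 with a threshold of 10 counts and -0.0399 to 0.00976 without 1 library. The cause was not tested. No paired analysis was possible because the replicate numbers only follow the order of deposition and the labels tie no HET mouse to a WT mouse.

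Depth limits the Htr6 grouping: the negative group rests on 4 counts, and 1 library lies 1 count under the threshold. The groups were made from the data, every mouse carries the Col4a5 defect, and only batch 1 separates Htr6 from the label, by 3 libraries.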
